A study of Homo sapiens with 12 samples.

Results

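Open chromatin at the cytochrome P450 genes was described from ATAC-seq peak lists of U2OS, a human osteosarcoma cell line. The 55 genes were the protein-coding genes whose symbol is CYP, a family number, a subfamily letter and a gene number, out of 19970 protein-coding genes on chromosomes 1 to 22 and X. Of these, 35 belong to families 1 to 4, which hold the enzymes of liver drug metabolism and fatty acid oxidation, and 20 belong to the other families. A gene was counted as having a peak when a peak overlapped its body or the 10 kb on either side by at least 1 bp.

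The series had 12 samples in 6 groups of 2. ATAC-seq uses the Tn5 transposase to insert sequencing adapters into accessible DNA, so that peaks mark open chromatin. The FOXA2 set consisted of samples labelled wild type, samples with a Tet-on FOXA2 transgene (full-length FOXA2) and samples with Tet-on FOXA2dCTD (the CTD-deleted form), with 1 peak list per library. The SOX2 set consisted of a wild type of its own, Tet-on SOX2 and Tet-on SOX2FOXA2CTD (a fusion of SOX2 with the CTD of FOXA2), with 1 list per group. Construct samples were labelled as treated with doxycycline at 500 ng/ml for 4 days, and the series describes the FOXA2 proteins as Flag-tagged. Genotype and treatment of both wild types were left empty in the labels, while the protocol text of every sample mentions doxycycline, so whether wild-type cells were treated is not known. The wild-type label of the SOX2 set refers to the SOX2 cell line as well. Neither the number of clones behind each line nor the read depth is given in the sources used here.

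Cytochrome P450 enzymes are haem proteins that insert oxygen into drugs, fatty acids, sterols, steroids, retinoids and vitamin D, and they draw electrons from P450 reductase or from ferredoxin. Many of the drug-metabolising genes are expressed mainly in hepatocytes, under HNF4A, C/EBP factors and nuclear receptors, while enzymes such as CYP51A1 serve sterol synthesis in most cells. FOXA2 is a forkhead pioneer factor of the liver and endoderm, able to bind sites in closed chromatin, and SOX2 is a pioneer factor of pluripotent and neural cells.

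The 250 bases before the transcription start are shown for 6 genes that stand for the patterns described further on. CYP51A1 is shown for a start covered in all 9 lists. CYP2U1 and CYP4V2 are shown for a start covered in all construct lists but absent from both FOXA2-set libraries labelled wild type. CYP3A4, CYP2C8 and CYP4F3 are drug or eicosanoid enzymes with few or no peaks at the start. The sequences are RefSeq's (GRCh38.p14), written in the direction of transcription, and capitals mark a forkhead word, that is TGTTTAC, the variant TGTTTGC or the variant TATTTAC on either strand.
CYP51A1, chr7:92134478-92134727, minus strand: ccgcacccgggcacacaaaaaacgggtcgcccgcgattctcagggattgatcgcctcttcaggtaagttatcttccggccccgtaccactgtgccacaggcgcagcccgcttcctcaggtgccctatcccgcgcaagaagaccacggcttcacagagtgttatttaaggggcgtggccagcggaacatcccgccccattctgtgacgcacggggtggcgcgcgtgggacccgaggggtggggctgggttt
CYP2U1, chr4:107931299-107931548, plus strand: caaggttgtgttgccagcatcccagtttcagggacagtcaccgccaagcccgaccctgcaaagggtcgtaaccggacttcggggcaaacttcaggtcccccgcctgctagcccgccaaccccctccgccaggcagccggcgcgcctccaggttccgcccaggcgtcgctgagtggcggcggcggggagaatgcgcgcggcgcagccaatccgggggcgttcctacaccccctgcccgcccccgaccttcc
CYP4V2, chr4:186191317-186191566, plus strand: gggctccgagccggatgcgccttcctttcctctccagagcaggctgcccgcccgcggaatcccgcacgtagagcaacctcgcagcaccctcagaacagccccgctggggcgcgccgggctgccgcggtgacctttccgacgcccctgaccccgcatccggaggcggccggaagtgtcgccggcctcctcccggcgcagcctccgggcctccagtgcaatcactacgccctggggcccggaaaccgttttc
CYP3A4, chr7:99784185-99784434, minus strand: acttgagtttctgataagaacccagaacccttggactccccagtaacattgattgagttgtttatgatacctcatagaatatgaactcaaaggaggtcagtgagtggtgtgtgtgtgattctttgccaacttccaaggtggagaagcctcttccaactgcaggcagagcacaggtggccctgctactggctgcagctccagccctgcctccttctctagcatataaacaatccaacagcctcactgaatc
CYP2C8, chr10:95069498-95069747, minus strand: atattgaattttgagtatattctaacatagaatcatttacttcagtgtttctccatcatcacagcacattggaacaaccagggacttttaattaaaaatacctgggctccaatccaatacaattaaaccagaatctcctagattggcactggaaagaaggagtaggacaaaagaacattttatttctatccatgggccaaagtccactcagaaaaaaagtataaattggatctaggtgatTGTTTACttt
CYP4F3, chr19:15641062-15641311, plus strand: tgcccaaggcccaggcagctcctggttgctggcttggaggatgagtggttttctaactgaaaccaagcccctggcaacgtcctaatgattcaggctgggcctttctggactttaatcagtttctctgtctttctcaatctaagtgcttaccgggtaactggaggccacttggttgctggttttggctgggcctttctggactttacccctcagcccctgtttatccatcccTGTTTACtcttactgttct
The contrast in base composition can be read from the letters. The stretches of CYP51A1, CYP2U1 and CYP4V2 hold 23, 25 and 29 CG dinucleotides, those of CYP3A4 and CYP2C8 hold 0 each, and that of CYP4F3 holds 2. Over the 15811 genes with a promoter in the table the median was 17.

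The lists differed in length and in how they were called, which bears on every count. In the FOXA2 set they held 19862 and 25088 peaks (labelled wild type, replicates 1 and 2), 161136 and 57946 (full length) and 78820 and 146854 (CTD-deleted). For the SOX2 set the numbers were 48142 in wild type, 65628 with SOX2 and 75544 with the fusion, at a global IDR, the irreproducible discovery rate between a pair of inputs, of at most 0.05. The second replicates of labelled wild type and of full-length FOXA2 had no mitochondrial peak and lowest −log10 p values of 5.43 and 5.22, against 2.01 to 3.44 in the other 4 lists of the FOXA2 set. Both libraries labelled wild type in the FOXA2 set had a peak in the FOXA2 gene at chr20:22581848-22582527 and chr20:22581827-22582860, at the 67.2 and 98.1 percentile of −log10 p in their own lists, where all 4 FOXA2-construct libraries had peaks at the 98.9 to 99.9 percentile. The wild type of the SOX2 set had its peak at the other end of the gene (chr20:22583822-22585189). The wild-type label of the FOXA2 set is therefore written as a label throughout. Of 10 osteoblast and mesenchymal markers, 8 had a peak in the wild type of the SOX2 set and 7 and 3 in the libraries labelled wild type of the FOXA2 set. Of 10 hepatocyte markers the counts were 8, 3 and 4, so these peak counts did not set the label's cell type apart.

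Genes of P450 families 1 to 4 were poorly covered by open chromatin in the libraries labelled wild type of the FOXA2 set. There 17.1% and 14.3% of them had a peak (15.7% ± 2.0, SD, n = 2), compared with 55.0% and 45.0% of the other P450 genes (50.0% ± 7.1, SD, n = 2) and 55.9% and 52.7% of all protein-coding genes. The share of families 1 to 4 was the lowest of the 3 in both libraries. No peak in either library was found at 28 of 35 genes of families 1 to 4, at 7 of 20 other P450 genes and at 35.4% of all genes. The drug enzymes were mostly among the uncovered genes: CYP3A4, CYP3A5 and CYP3A7, CYP2C8, CYP2C19, CYP2B6, CYP2D6, CYP1A1 and CYP1A2 had no peak in either library. Gene windows were of similar length, with medians of 41.9 kb for families 1 to 4, 40.6 kb for the other families and 44.2 kb for all genes.

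With the constructs the shares were higher and less even between libraries. Full-length FOXA2 libraries had peaks at 85.7% and 48.6% of families 1 to 4, at 80.0% and 75.0% of the other families and at 93.5% and 78.1% of all genes. CTD-deleted libraries had peaks at 57.1% and 85.7%, 60.0% and 90.0%, and 81.0% and 92.4% of these genes in the same order. The spread between the replicates of a construct was as large as 26.3 percentage points (SD, n = 2) for families 1 to 4 with full-length FOXA2, and it followed the number of peaks in the lists. In the SOX2 set, families 1 to 4 had a peak at 51.4% (Wilson 95% interval 35.6 to 67.0) of genes in wild type, 60.0% (43.6 to 74.4) with SOX2 and 54.3% (38.2 to 69.5) with the fusion. All protein-coding genes stood at 80.3%, 83.5% and 82.1% in the same order, above both P450 groups. The other families were at 65.0% (43.3 to 81.9), 75.0% (53.1 to 88.8) and 75.0% (53.1 to 88.8), so the intervals, which cover counting of genes only, overlapped in every list of that set. In labelled wild type replicate 1 of the FOXA2 set they did not (8.10 to 32.7 against 34.2 to 74.2), and in replicate 2 they did (6.26 to 29.4 against 25.8 to 65.8). The intervals are not a test and leave out the spread between libraries. They treat genes as independent, although the 35 genes of families 1 to 4 form 28 loci of overlapping windows.

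Families 1 to 4 were below the other families in 8 of 9 lists. Both P450 groups were below all genes in every list. For the other families the shortfall was as small as 55.0% against 55.9%, in labelled wild type replicate 1. With the strongest 19862 peaks of each list, families 1 to 4 were below the other families in 9 of 9 lists. Both groups were again below all genes in every list. The shares were then 14.3% to 31.4% for families 1 to 4, 40.0% to 55.0% for the other families and 46.3% to 59.9% for all genes. The full-length FOXA2 libraries stood at 31.4% and 14.3% on this footing, the CTD-deleted libraries at 25.7% and 22.9% and the libraries labelled wild type at 17.1% and 14.3%. The ranges of full-length and labelled wild type overlapped. Those of CTD-deleted and labelled wild type did not, at 9 and 8 against 6 and 5 of 35 genes. Over all genes they did overlap, with 46.9% and 51.8% in the CTD-deleted libraries and 55.9% and 46.3% in those labelled wild type. No test was made, since 2 libraries against 2 cannot give a two-sided exact permutation p below 0.333. With a flank of 50 kb in place of 10 kb the order held in 4 of 9 lists.

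**Figure D1:**
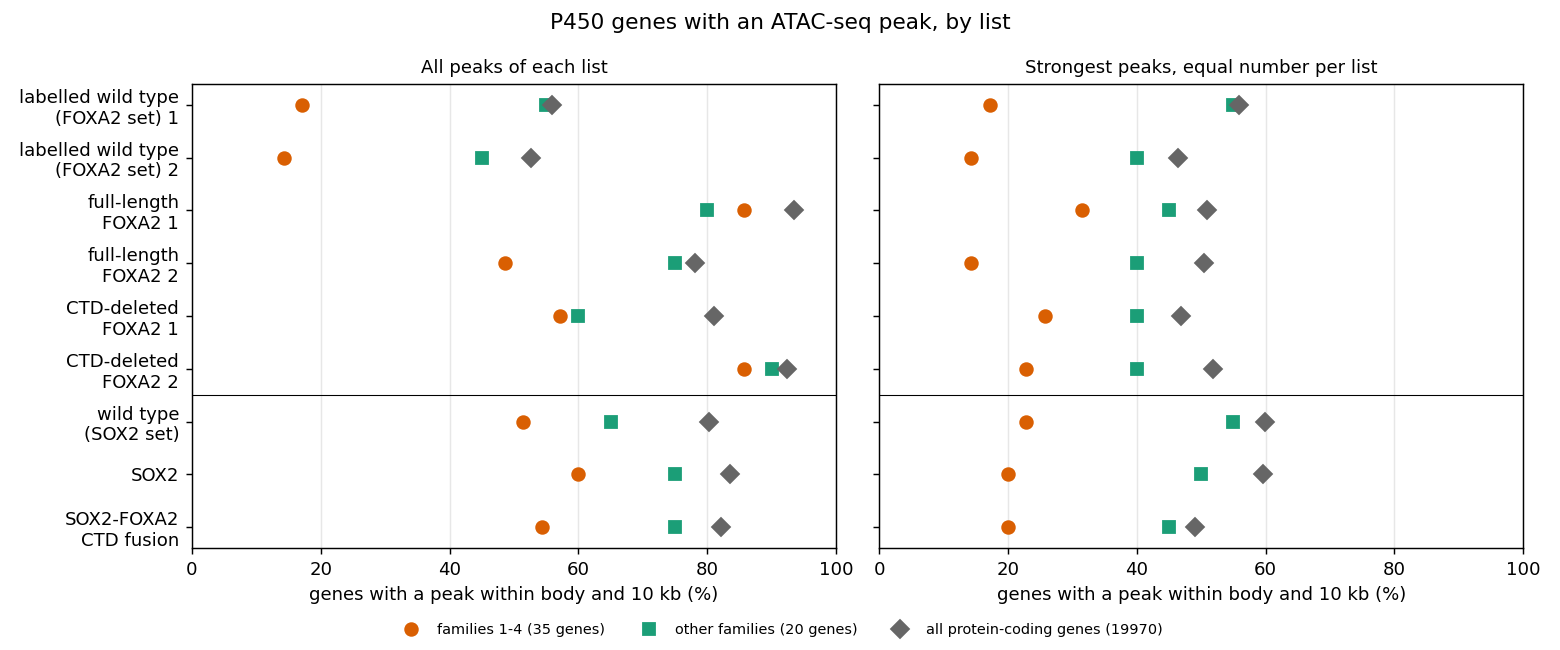
Percent of genes with a peak within the gene body and 10 kb, one row per peak list, for P450 families 1 to 4, the other P450 families and all protein-coding genes; left, all peaks, right, the strongest 19862 peaks of each list. Families 1 to 4 lie to the left of the other families in 8 lists on the left and in all 9 lists on the right.

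A small group of P450 genes had a peak somewhere in the window in every list. Of the 55 genes, 11 had a peak in all 9 lists, compared with 40.9% of all genes: CYP2E1, CYP2J2, CYP2R1 and CYP2W1 of families 1 to 4, and CYP7B1, CYP8B1, CYP20A1, CYP27B1, CYP27C1, CYP39A1 and CYP51A1. The peaks need not be the same region, and no single region near CYP7B1 or CYP27C1 was called in all 9 lists. The median P450 gene of families 1 to 4 had a peak in 4 lists, the median of the other families was 7, and the median of all genes was 8. A peak within 1 kb of the start in all 9 lists was found for 5 of the 39 genes with a known start (21.8% of all genes with one), namely CYP2J2, CYP2R1, CYP20A1, CYP39A1 and CYP51A1.

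CYP51A1, the lanosterol demethylase of cholesterol synthesis, had a start peak at chr7:92133397-92135115 with a fold enrichment of 6.29 and 6.86 in the libraries labelled wild type, 4.76 and 9.55 with full-length FOXA2 and 7.18 and 5.23 with CTD-deleted FOXA2. Its rank by −log10 p in its own list, used for every percentile given here, was between the 69.4 and 98.1 percentile. CYP2R1, a vitamin D hydroxylase, had a start peak at chr11:14891088-14892665 at the 73.8 to 98.8 percentile in these 6 lists, with −log10 p values of 51.9, 46.1 and 34.6 in wild type, SOX2 and fusion. CYP2J2, an epoxygenase of arachidonic acid, had its start peak at chr1:59926118-59927166, with fold enrichments of 5.75 to 7.16. CYP39A1, which hydroxylates an oxysterol, shares its start region with SLC25A27, and CYP20A1 is an orphan P450. These starts were covered in every library, and fold enrichment cannot be set side by side between lists because it depends on each library's own background.

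Other constant peaks near P450 genes lay over or near neighbouring genes. CYP27B1, the enzyme that activates vitamin D, had a constant region at the start of CDK4 (chr12:57751766-57752909) and another inside METTL1 and EEF1AKMT3 (chr12:57771792-57772864), both outside its body. The constant peak of CYP8B1, a bile acid hydroxylase, lay 5329 bp outside its body, and that of CYP2W1 lay in CHLSN. For CYP2E1, the ethanol-oxidising P450, the constant region was upstream, centred 6974 bp before the start (chr10:133519978-133520801), and no list had a peak at the start itself. A peak in the window of a gene thus does not say that the peak belongs to that gene.

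At the other end, CYP1A2, which clears caffeine, CYP2C8, which oxidises paclitaxel, and CYP21A2, a hydroxylase of cortisol and aldosterone synthesis, had no peak in any list, as did 2.72% of all genes. CYP2D6 and CYP2A6 each had a peak in CTD-deleted replicate 2 alone. No start peak in any list was found for 20 of the 39 genes with a known start, compared with 26.6% of all such genes. Among them were CYP2B6, CYP2C8, CYP2C19, CYP2E1, CYP3A4, CYP3A5, CYP4F2, CYP17A1, CYP26A1 and CYP27A1. Start peaks of families 1 to 4 were below the other families in all 9 lists, from 7.41% against 25.0% in both libraries labelled wild type (36.7% and 35.1% of all genes) to 37.0% against 41.7% in full-length replicate 1 (63.5% of all genes). Read depth is unknown, so a gene without a peak is one where no peak was called.

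**Figure D2:**
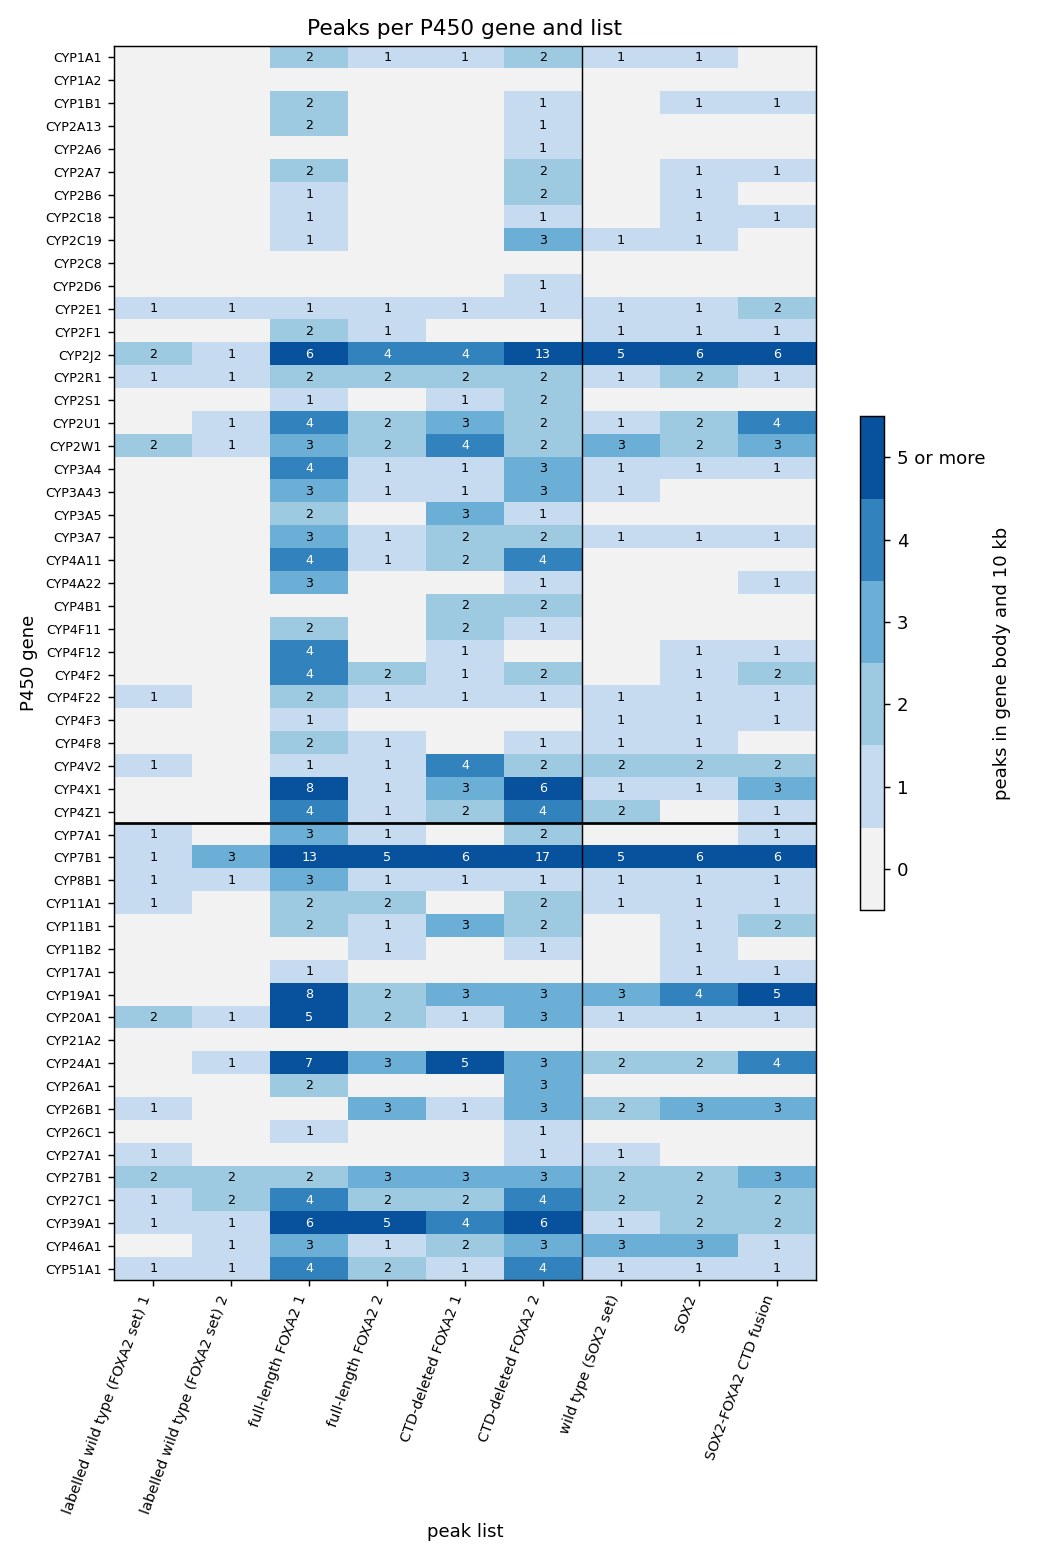
Number of peaks within the body and 10 kb of 54 of the 55 P450 genes (rows, families 1 to 4 above the line) in the 9 lists (columns, SOX2 set right of the line). Most rows above the line are empty in the 2 columns labelled wild type, and CYP1A2, CYP2C8 and CYP21A2 are empty throughout.

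Gains were counted next. For FOXA2 a gained region is one that both construct libraries called and that had no peak under the wild-type label; for SOX2 it is one on the construct's list only, compared with wild type. With full-length FOXA2, 14 of 35 genes of families 1 to 4 (40.0%) and 7 of 20 others (35.0%) had a gained region, where 46% of all genes had one. With CTD-deleted FOXA2 the counts were 10 of 35 (28.6%) and 6 of 20 (30.0%), against 41.2% of all genes. Both comparisons use the same libraries labelled wild type. P450 genes were therefore near or below the background in both, and neither family group stood above it. No P450 gene had a region lost with either FOXA2 construct, where 1.03% and 0.436% of all genes had one. Within the pair of lists without mitochondrial peaks the full-length counts were 16 and 11 genes (61.5% of all genes), and within the lists with them 29 and 15 (87.6%). The CTD-deleted libraries against the one labelled wild type library of their kind gave 10 and 8 (49.4%).

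**Figure D3:**
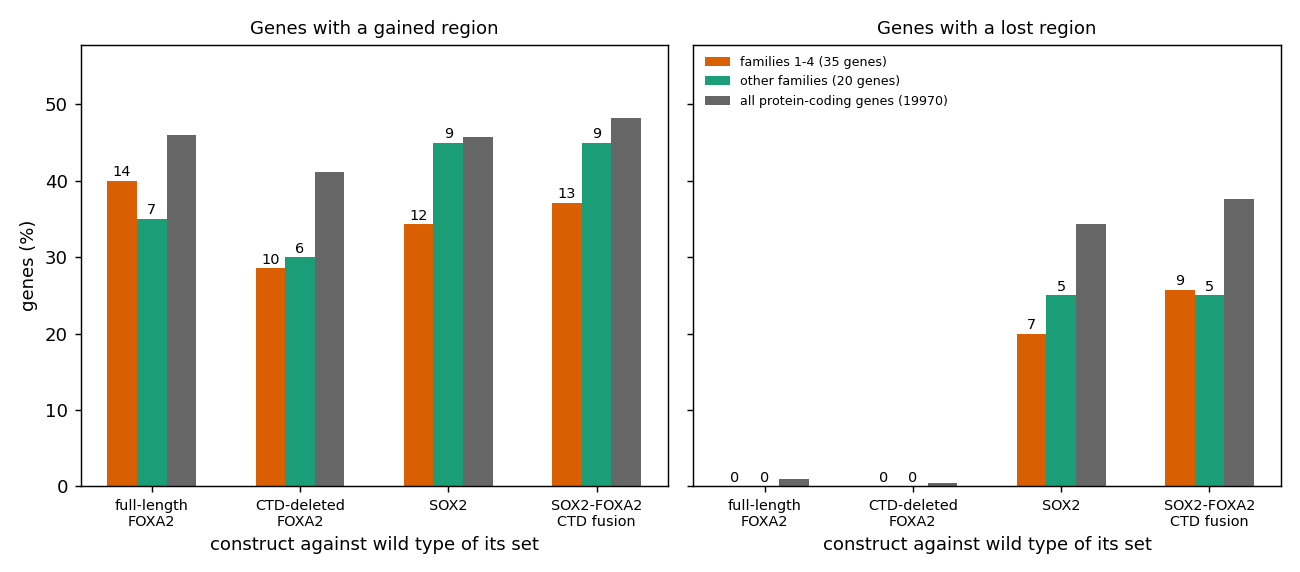
Percent of genes with a gained (left) or lost (right) region within the body and 10 kb, for each construct against the wild type of its set; numbers above bars are P450 genes. The bars of both P450 groups lie below those of all genes in every comparison.

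Altogether 34 regions in P450 windows were gained with a FOXA2 construct: 9 with both, 14 with full length only and 11 with the CTD-deleted form only. The shared regions made up 39.1% of the full-length gains and 45.0% of the CTD-deleted gains, compared with 46.8% and 51.4% at all genes. Of the 23 gained with full length, 20 had a peak in CTD-deleted replicate 2 and 9 in CTD-deleted replicate 1, and none of the 14 had a peak in CTD-deleted replicate 1. Across all genes 75.6% and 53.0% of the full-length gains had such a peak. Of the 20 gained with CTD-deleted FOXA2, 15 had a peak in full-length replicate 1 and 12 in replicate 2 (75% and 60%). Across all genes these shares were 73.1% and 57.7%. Of the 23, 3 (13.0%) lay within 1 kb of the start of the P450 gene, at CYP1A1, CYP2U1 and CYP4V2, and 3 of the 20 gained with CTD-deleted FOXA2 (15%), at CYP2U1, CYP4V2 and CYP4X1. Of the gains at all genes 13.5% and 9.76% lay near a start. A gained region lay near 15 P450 genes with both constructs, though not always the same region, compared with 31.7% of all genes.

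Among the drug enzymes the gains with both constructs fell in the CYP3A cluster. For CYP3A4, the main drug-oxidising P450 of adult liver, the region chr7:99751475-99752100 lies beyond the far end of the gene, 32397 bp downstream of the start. This region is nearer the start of CYP3A7 (chr7:99735196) than that of CYP3A4 (chr7:99784184), and is named after CYP3A4 by its window only. Its fold enrichment was 5.05 and 8.18 in the full-length libraries and 4.77 and 5.75 in the CTD-deleted libraries, at the 89.7, 71.2, 76.7 and 90.2 percentile of −log10 p in their own lists, and no peak was called in either library labelled wild type. For CYP3A7, the fetal liver form, the region chr7:99699039-99699617 lies 35868 bp downstream of the start inside ZSCAN25 and the readthrough gene CYP3A7-CYP3A51P. This region is nearer the start of CYP3A5 (chr7:99679996) than that of CYP3A7. It had folds of 4.89 and 6.82 with full length and of 3.25 and 7.39 without the CTD, which puts it at the 28.2 percentile in CTD-deleted replicate 1 and the 96.8 percentile in replicate 2. The start of CYP3A4 itself, whose sequence is printed above, had no peak in any list. CYP3A43 had a gain with each construct in different regions. Its CTD-deleted region was also called in full-length replicate 1 (4.17), and its full-length region in CTD-deleted replicate 2 (5.38). CYP3A5 had no gained region in its window.

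Both of these regions were also open in the wild type of the SOX2 set. The CYP3A4 region was called there at a −log10 p of 7.51, the 12.7 percentile of that list, and the CYP3A7 region at 13.9, the 57.2 percentile. In all, 9 of the 23 full-length gains (39.1%) were called in that wild type, compared with 3715 of the 14315 full-length gains at all genes (26.0%). Of the 9 regions gained with both FOXA2 constructs, 6 were called there. Counting as gained only regions that are also missing from this list, a definition chosen after seeing the data, left 7 of 35 genes of families 1 to 4 with full-length FOXA2 and 5 of 35 with the CTD-deleted form, with 32.1% and 28.7% of all genes.

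CYP2U1, which hydroxylates fatty acids, had a gain over its start (chr4:107931103-107932032) with folds of 5.83 and 9.55 with full length and 3.85 and 4.63 without the CTD. It ranked at the 94.3, 81.9, 61.1 and 82.5 percentile. In the wild type of the SOX2 set the same start was among the stronger peaks (−log10 p 32.9, 93.7 percentile). CYP4V2, a fatty acid hydroxylase of the eye, showed the same pattern over its start (chr4:186190662-186192438), with folds of 5.88, 6.82, 3.12 and 5.80 in the same order and a −log10 p of 18.8 in the SOX2-set wild type. Neither start was called in the libraries labelled wild type of the FOXA2 set, whose lists were the shortest. CYP1A1, which oxidises aromatic hydrocarbons, had a full-length gain centred 613 bp before its start (chr15:74725683-74726600; folds 4.33 and 5.45), with a peak in CTD-deleted replicate 2 (3.41) and none in replicate 1. It too was called in the SOX2-set wild type.

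In family 4, which oxidises fatty acids and eicosanoids, the gains with both constructs other than that of CYP4V2 lay at the CYP4A11, CYP4X1 and CYP4Z1 cluster. The region chr1:47051295-47052026 lies in CYP4X1 and 15571 bp before the start of CYP4Z1, and its folds were 5.79 and 6.48 with full length and 3.78 and 4.07 without the CTD. The region at CYP4A11 (chr1:46941530-46942115) was weaker, at the 13.2 percentile in CTD-deleted replicate 1. Neither was called in any list of the SOX2 set. Near the start of CYP4X1 the region chr1:46960275-46961153 was gained with CTD-deleted FOXA2 (4.66 and 4.55). It was also called in full-length replicate 1 (3.47) but not in full-length replicate 2. CYP4F2, which hydroxylates vitamin K and arachidonic acid, had 2 full-length regions and a different one without the CTD (4.65 and 4.09). The latter was also called in full-length replicate 1 (4.17, 81.5 percentile) but not in replicate 2. Of the full-length regions, chr19:15869012-15869532 was called in CTD-deleted replicate 2 (4.09) and the other in neither CTD-deleted library. CYP4F8, a prostaglandin hydroxylase, had a full-length region at 6.04 and 5.45 that stood at 2.34 in CTD-deleted replicate 2.

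Among the sterol, steroid and vitamin D enzymes, gains with both constructs lay inside 3 genes. CYP19A1, the aromatase, had one at chr15:51281212-51281826, 36978 bp inside the gene from its start, with folds of 4.42, 5.80, 3.90 and 4.35 in full-length replicates 1 and 2 and CTD-deleted replicates 1 and 2. CYP24A1, which degrades vitamin D, had one at chr20:54168062-54168485 (3.95, 6.82, 3.47 and 6.12). CYP39A1 had one at chr6:46620090-46620761 (3.87, 3.75, 3.90 and 4.09) that was near the bottom of the full-length replicate 2 list, at the 0.124 percentile. The CYP19A1 and CYP24A1 regions were also called in the wild type of the SOX2 set, at −log10 p values of 8.43 and 11.6. This CYP39A1 region was not. A second CYP39A1 region (chr6:46643213-46643939) had CTD-deleted folds of 6.07 and 5.23, and was called in full-length replicate 1 at 3.87 but not in replicate 2. CYP7A1, the rate-limiting enzyme of bile acid synthesis, had a full-length region at 5.21 and 6.14, present in CTD-deleted replicate 2 at 2.92. CYP26B1, which degrades retinoic acid, had a CTD-deleted region at 4.10 and 3.88 that full-length replicate 2 carried at 7.50 and replicate 1 did not. This region was also called in the wild type of the SOX2 set (−log10 p 17.4, 69.6 percentile).

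The number of gains left when lists were made comparable depended on how this was done. With the strongest 19862 peaks per list, full-length FOXA2 kept 2 P450 genes, CYP2U1 and CYP3A4 (9.87% of all genes kept a gain), and CTD-deleted FOXA2 kept CYP3A4 (7.15%). With the threshold common to all 6 lists (−log10 p of at least 5.43), 9 genes of families 1 to 4 and 3 others had a full-length gain (28.7% of all genes), and 2 and 1 a CTD-deleted gain (15.3%). The CYP3A4 region was the only one gained with both constructs under both of these settings. A difference between the FOXA2 constructs was not tested.

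**Figure D4:**
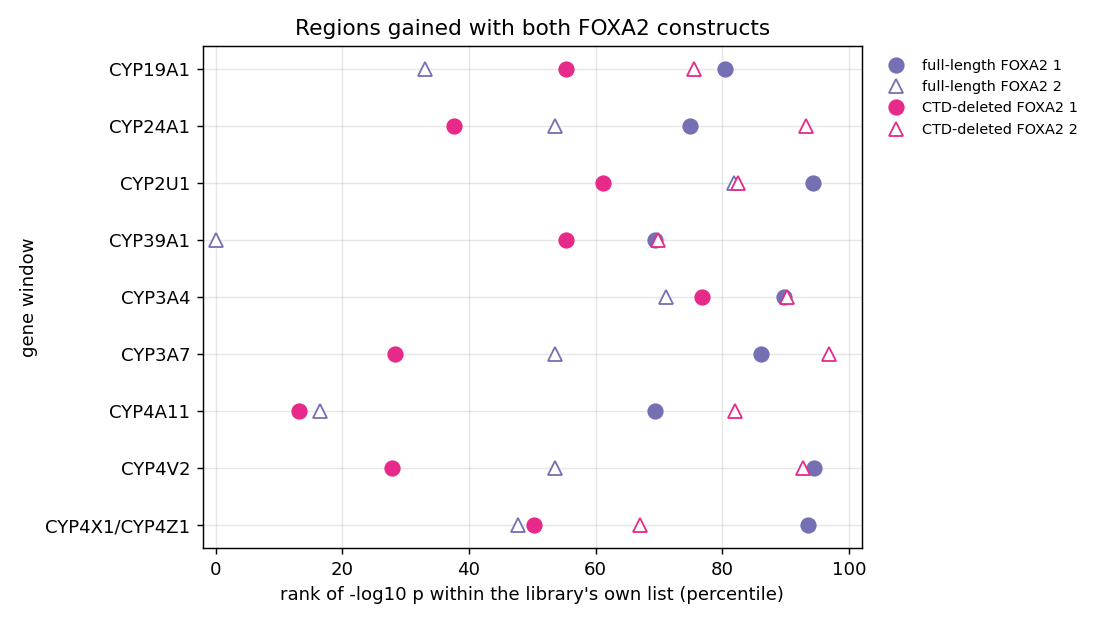
Rank of the deposited −log10 p within the library's own list (percentile, 100 highest) for the 9 regions near P450 genes gained with both FOXA2 constructs, one row per region and one symbol per library. CYP3A4 and CYP2U1 stay above the 60 percentile in all 4 libraries, while CYP39A1 and CYP4A11 fall below the 20 percentile in at least 1.

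In the SOX2 set there were 91 regions near P450 genes, of which 32 were called in all 3 lists. SOX2 gained 25 regions at 12 of 35 genes of families 1 to 4 (34.3%) and 9 of 20 others (45.0%), against 45.7% of all genes. The fusion gained 31 regions at 13 (37.1%) and 9 (45.0%), against 48.2% of all genes. Both use the same wild-type list. The IDR limit compares a pair of inputs within each list, but with 1 list per group a gain could not be checked per replicate. Of the 41 gained regions, 15 were called with SOX2 and with the fusion, 10 with SOX2 only and 16 with the fusion only. The shared regions were 60.0% of the SOX2 gains and 48.4% of the fusion gains, compared with 70.7% and 55.4% at all genes. The lists also hold entries above the IDR limit. Such an entry lay in the fusion list at 10 of the 10 SOX2-only regions, in the SOX2 list at 13 of the 16 fusion-only regions, and in the wild-type list at 17 of the 41. With these entries counted, 100% of the SOX2 gains were present in the fusion list and 90.3% of the fusion gains in the SOX2 list, close to the 97.6% and 88.9% at all genes.

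The strongest gain of the SOX2 set near a P450 gene lay 8955 bp before the start of CYP2U1 (chr4:107922207-107922981), with a −log10 p of 22.9 with SOX2 (84.6 percentile of its list) and 19.6 with the fusion (90.8 percentile), and no entry in the wild type of its set. It was called in labelled wild type replicate 2 of the FOXA2 set and in all 4 FOXA2-construct libraries. CYP39A1 followed with a region 9196 bp inside the gene (chr6:46643219-46644026; 14.7 and 16.0), which overlaps the CTD-deleted FOXA2 gain described above. CYP2J2 had one 14614 bp before its start (chr1:59940974-59941801; 12.3 and 13.2). Neither of these had an entry in the wild type of the SOX2 set. CYP17A1, the enzyme of androgen synthesis, had one 2324 bp inside the gene (chr10:102834650-102835529; 11.3 and 8.77), whose wild-type entry had an IDR of 0.0728. CYP7B1, an oxysterol hydroxylase, had 7.10 and 12.8 with a wild-type IDR of 0.0568, and CYP11B1, the enzyme of the last step of cortisol synthesis, had 10.1 and 10.3 with no wild-type entry. CYP19A1 had the third highest SOX2 value (14.5, chr15:51243437-51244123), with a wild-type IDR of 0.526 and no call with the fusion. CYP24A1 had a fusion region at 12.2 (chr20:54140463-54141638), with a wild-type IDR of 0.340, and a different SOX2 region at 11.6 (chr20:54169257-54169846), with a wild-type IDR of 0.0760. The fusion region was also called in labelled wild type replicate 2 of the FOXA2 set and in all 4 FOXA2-construct libraries.

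No SOX2 gain and 1 fusion gain, at CYP4X1, lay within 1 kb of a P450 start, where 7.22% and 4.71% of the gains at all genes lay near a start. Of the drug enzymes, CYP3A4, CYP3A5, CYP3A7, CYP2C8, CYP2C19, CYP2D6 and CYP1A2 gained no region with either construct. Families 1 to 4 as a whole had gains at 34.3% of genes with SOX2 and 37.1% with the fusion, CYP2J2 among them with both. CYP2E1 gained 1 region with the fusion, inside the gene (−log10 p 5.72, 2.71 percentile). CYP2B6, an enzyme of bupropion metabolism, gained 1 region with SOX2 (−log10 p 7.10), and CYP1B1, which hydroxylates oestradiol, gained 1 with both (8.997 and 9.27). Across all 4 comparisons, 9 P450 genes had a gained region each time (18.3% of all genes): CYP2J2, CYP2U1, CYP4F2, CYP4X1, CYP11B1, CYP19A1, CYP24A1, CYP39A1 and CYP7B1. The regions need not be the same. At CYP2J2 the full-length region (chr1:59947269-59947908), the CTD-deleted region (chr1:59903013-59903693) and the region of SOX2 and the fusion all differed. The CTD-deleted region of CYP11B1 was centred 10293 bp outside its body, so only its edge reached the window. A gain in at least 1 comparison was found for 35 of 55 (73.8% of all genes).

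**Figure D5:**
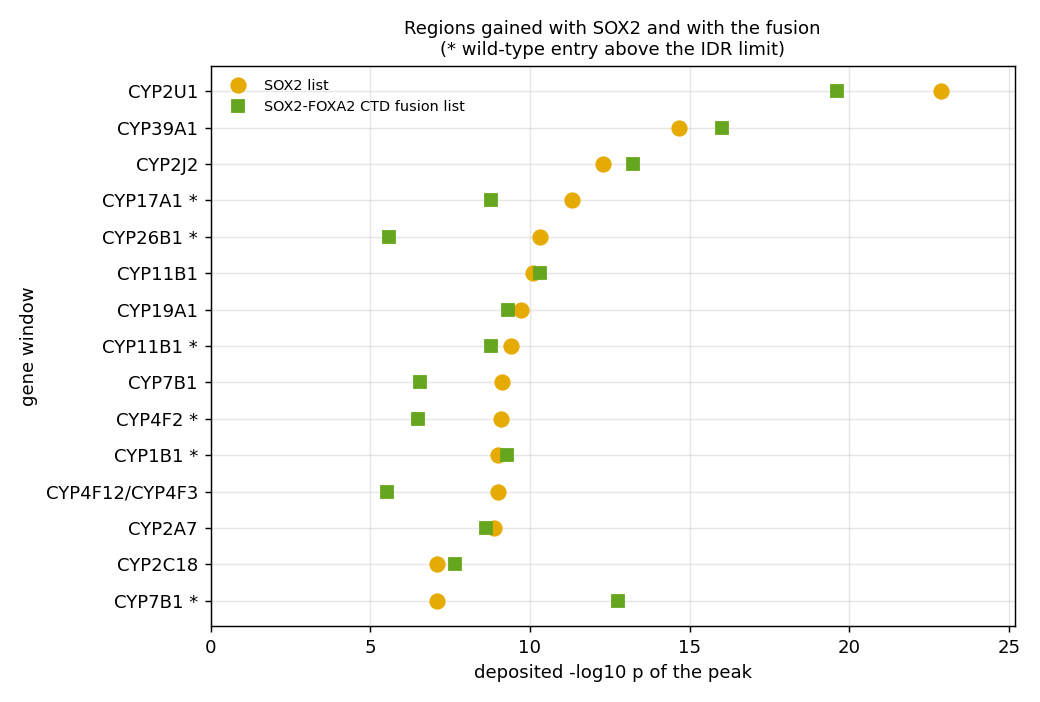
Deposited −log10 p of the 15 regions near P450 genes gained with SOX2 and with the fusion, one row per region, sorted by the SOX2 value; an asterisk marks a wild-type entry that missed the IDR limit. CYP2U1 is highest in both lists, at 22.9 and 19.6.

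Losses were seen in the SOX2 set. Regions called in its wild type and not with SOX2 lay near 7 genes of families 1 to 4 and 5 others (34.4% of all genes), and those not called with the fusion near 9 and 5 (37.7%). With both constructs missing, there were 12 regions. CYP27A1, a sterol hydroxylase of bile acid synthesis, had one with a wild-type −log10 p of 11.9 (chr2:218806218-218806975), and CYP4F3 had one 476 bp before its start at 11.9 (chr19:15640441-15641231). CYP3A43 had one at 10.9 and CYP4Z1 one at 10.8. Only 4 of the 12 had no entry of any IDR in either construct list.

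Partners of the P450 system were counted in the same way. Of 57 electron donors, regulators, conjugating enzymes and P450 genes with other symbols, 21 had a gained region with full-length FOXA2, 16 with the CTD-deleted form, 31 with SOX2 and 30 with the fusion (36.8%, 28.1%, 54.4% and 52.6%, against 46, 41.2, 45.7 and 48.2% of all genes). For the pooled list the shares were thus below those of all genes with the FOXA2 constructs and above them with SOX2 and the fusion. The parts of the list differed. With SOX2, 16 of 26 conjugating and other enzymes and 8 of 21 regulators had a gain, and with the fusion 13 and 12. Gains with both FOXA2 constructs, not necessarily in the same region, were found at 31.7% of all genes. They were found at 3 of the 8 genes listed as electron donors and membrane partners (CYB5A, CYB5R3 and FDX2). The same held for 4 of 21 regulators, namely AHR, the dioxin receptor, NR1H4, the bile acid receptor, HNF4A, a liver factor, and NR5A2. Among 26 conjugating and other enzymes it held for 4, among them SULT1E1, NAT1 and FMO1. These genes were counted from peak lists alone, and whether any of them changed in expression was not measured.

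Promoter sequence was available for 39 of the 55 genes. Forkhead words were present in 8 of the 39 promoters, from 250 bases before to 50 after the start, and in 7.53% of all 15811. All 8 belong to families 1 to 4: CYP2C8, CYP2E1, CYP2S1, CYP3A43, CYP3A5, CYP3A7, CYP4B1 and CYP4F3. The word of CYP2C8 begins 10 bases before the start and that of CYP4F3 19 bases before it. None of the 8 had a gained region overlapping this window, and 2 of the 8 had a peak there in at least 1 list. The median GC content was 54.3% in families 1 to 4, 61.5% in the other families and 62.7% over all promoters. Promoters of all genes with no peak in any list had a median of 54.7%. Of these 10.7% held a forkhead word, and 29.6% of the promoters of families 1 to 4 did. Whether base composition bears on these shares was not tested. SOX words (ACAATGG, the variant AACAATG or the variant AACAAAG, on either strand) were present in 5 of 39 and in 7.90% of all.

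P450 promoters with a peak in at least 1 list (13) had a median of 21 CG dinucleotides before the start, and those with none (26) had a median of 2. Over all genes these medians were 21 and 5. The P450 genes followed the division of all genes in this respect, with CYP51A1, CYP2U1 and CYP4V2 on one side and CYP3A4 and CYP2C8 on the other, but not without exceptions. CYP26C1 and CYP27A1 had 27 and 24 CG dinucleotides and no promoter peak, while CYP4X1 and CYP4F3 had 1 and 2 and a peak.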

How the data were processed

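ATAC-seq peak lists of 12 U2OS samples in 6 groups were used as deposited. Per the submitters' processing notes the authors used FastQC 0.10.1, Trim Galore, Bowtie2 2.4.4, SAMtools 0.1.18, MACS2 and deepTools 2.4.1 with hg38, with parameters not given in the sources used here. The deposited fold enrichment, a ratio over the library's own background, and the authors' deposited −log10 p served within a list, apart from 1 threshold common to the FOXA2-set lists, and ranked the peaks, while the deposited −log10 q gave list thresholds. The SOX2-set lists have the layout of IDR output, with a deposited score that restates the IDR, and entries at a global IDR of at most 0.05 were kept. Gene positions and promoters were RefSeq's (GRCh38.p14), and positions are 1-based. Promoters, and hence starts, matched 39 of 55 P450 genes.

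Peaks on chromosomes 1 to 22 and X were merged into a union of regions per set with Python 3.11.15 and pandas 2.3.3, and called regions were those overlapped by at least 1 bp. The interval steps were tested on simulated lists. No test was made: n = 2 lists per FOXA2-set group and 1 per SOX2-set group, and depth is unknown. Alternatives were other flanks, equal peak numbers, common thresholds, IDR limits, summit windows, merged loci and leaving out libraries. The members and gene lists were chosen with earlier results of these data known. Named were textbook P450 enzymes, genes gained with both FOXA2 constructs, the 6 with the highest values per construct, and those with a start peak in all lists or no peak in any. CYP2A6, CYP2S1, CYP2W1, CYP3A43, CYP4B1, CYP4F3, CYP26C1 and CYP27C1 were added after their values were seen. Values of 2 genes are counted in the totals but not reported here by name. Motifs were searched in promoters only, since gained regions had no sequence here.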

Additional observations from a re-analysis of the deposited data

How the results depend on the processing

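The count of P450 genes with a gained region depended on window, list length and replicate, and 2 libraries or 1 list per group limit every count. Order below is full-length families 1 to 4 and other families, then CTD-deleted, SOX2 and fusion likewise, with main counts of 14, 7, 10, 6, 12, 9, 13 and 9. These are out of 35 and 20 genes, where 46, 41.2, 45.7 and 48.2% of all genes had a gain. The body alone gave 7 genes of families 1 to 4 with full length, 6 with CTD-deleted, 4 with SOX2, and 7 and 5 with the fusion. Of all genes 33.9%, 30.2%, 33.7% and 35.8% had a gain there, in the order of the constructs. A flank of 50 kb gave 26, 15, 17 and 13 in the FOXA2 set, 23 for SOX2 families 1 to 4, and 22 and 14 for the fusion. With full length these were 74.3% and 75.0% of the P450 groups, against 73.4% of all genes. With CTD-deleted, SOX2 and the fusion 68.8%, 75.3% and 76.8% of all genes had a gain, above both P450 groups. Equal peak numbers gave 2, 0, 1 and 0 in the FOXA2 set and 6 for fusion families 1 to 4. Of all genes 9.87%, 7.15% and 33.1% had a gain then with full length, CTD-deleted and fusion. A common threshold gave 9, 3, 2 and 1 (28.7% of all genes with full length and 15.3% with CTD-deleted). Lists with mitochondrial peaks alone gave 29 and 15 with full length (87.6% of all genes), and those without gave 11 others (61.5%). Also requiring no call in the SOX2-set wild type, chosen after seeing the data, gave 7 and 5 genes of families 1 to 4. Of all genes 32.1% and 28.7% kept a gain. All entries whatever their IDR gave 21 and 14 with SOX2 and 22 for fusion families 1 to 4. With SOX2 these were 60% and 70% of the P450 groups, against 55.9% of all genes. With the fusion 62.9% of families 1 to 4 had a gain, against 63.9% of all genes. An IDR of at most 0.01 gave 6 for fusion families 1 to 4 (38.8% of all genes). Counting any wild-type entry as called gave 4 others with SOX2 (25.8% of all genes). Leaving out a library gave 14 to 29 and 8 to 15 genes with full length and 10 to 27 and 6 to 15 with CTD-deleted. Of all genes 52.9% to 85.4% and 48.7% to 82.6% had a gain then. The highest values came without full-length replicate 2 and without CTD-deleted replicate 1, and 17 genes of families 1 to 4 were counted without CTD-deleted replicate 2. Without either library labelled wild type, counts were 14 to 16, 8 to 9, 10 to 12 and 6 to 8.

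Across settings, families 1 to 4 had the lower share of gained genes in 6 of 15 settings with full length, 7 of 14 with CTD-deleted, 7 of 9 with SOX2 and 7 of 9 with the fusion. Families 1 to 4 were below the others in 8 of 9 lists, and in 4 of 9 with a flank of 50 kb. The difference in percentage points became -13.6 in full-length replicate 1 at equal numbers. With 50 kb it became 2.14 in CTD-deleted replicate 2, 6.43 in the SOX2-set wild type, 3.57 with SOX2 and 3.57 with the fusion. With all entries it became 0.714 with SOX2 and 1.43 with the fusion, and with merged loci 3.38 in CTD-deleted replicate 2. The cause of these changes was not tested. The order over starts held in 9 of 9 lists under both alternatives tried. The planned search for motifs in gained regions was not run. No paired analysis was possible because the results come from no test.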
